A study of Mus musculus with 12 samples.

Results

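The 10 genes described here encode a pair of TAM receptor kinases (Mertk and Axl), the bridging ligands Gas6, Pros1 and Mfge8, the scavenger receptors Cd36, Msr1, Scarb1 and Stab1, and the lysosomal protein Cd68, which is classed with the scavenger receptors. They were taken by symbol from the deposited table of raw counts, and each symbol matched 1 of the 55487 genes listed. All 10 passed the filter on low counts, which kept 15425 genes. The rule takes symbols and no measured value, but the 10 genes were chosen with earlier results of these data known. Counts of them beside the share over all genes are therefore a description.

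Phagocytes recognise dying cells and debris largely by phosphatidylserine, a lipid that healthy cells keep on the inner face of their membrane. GAS6 and protein S bind this lipid and bridge it to the TAM receptors MERTK and AXL, whereas MFG-E8 bridges it to integrins. Scavenger receptors bind oxidised lipoproteins, apoptotic cells and protein aggregates, among them fibrillar amyloid-β for CD36 and MSR1, and in the brain microglia and the macrophages at its borders are the main phagocytes.

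CD11b-positive cells were isolated with magnetic beads from papain-digested cerebral cortex of male mice, and bulk mRNA sequencing was performed on 12 libraries, 3 in each of 4 groups and each from another mouse. App NL-G-F mice, a knock-in model in which the mouse App gene carries a humanised amyloid-β sequence with familial Alzheimer mutations and amyloid plaques form with age, were compared with WT mice. Mice of both strains received i.v. injections of PBS (veh) or 10 mg/kg of rh Bri2 BRICHOS R221E, a recombinant human chaperone domain with an Arg-to-Glu exchange. All 4 groups were 9 months old at the start, received 24 injections over 12 weeks and were left for another 4 weeks without treatment before the cells were taken. The groups are written below as WT-veh, WT-BRICHOS, App-veh and App-BRICHOS, with App for the knock-in strain. The knock-in is constitutive, so its effect in the microglia cannot be told apart from that of the plaques around them.

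The libraries held 12433402 to 17889654 counts, and 3 counts, taken as the detection floor, correspond to 0.169 to 0.226 CPM, the count scaled by library size and by the TMM factor, which corrects for RNA composition. All 8 microglia markers were detected in every group, with a summed level of 24582 to 29815 CPM over the 12 libraries, and between App-veh and WT-veh mice 6 of them were called lower and 2 higher. Markers of other cells were present as well. Summed over their lists, 7 border macrophage markers ranged from 182 to 670 CPM, 4 monocyte markers from 8.0 to 71.1 CPM, 7 astrocyte markers from 423 to 4472 CPM, 6 endothelial markers from 358 to 700.3 CPM, 5 mural cell markers from 54.8 to 233 CPM and 4 choroid plexus markers from 626 to 6646 CPM. No marker on these lists was at 0 in all libraries. App itself ran from 546 to 614 CPM in App-veh and from 622 to 836 CPM in WT-veh libraries, and as the knock-in allele is transcribed, this level does not check the genotype labels. In bulk RNA, fewer cells of a type and less RNA per cell cannot be told apart.

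To see which of these genes had the highest levels in the isolated cells, they were compared per length of the merged exons, as RPKM (CPM divided by the length in kilobases). In WT-veh libraries Cd68 stood first, with 429.6 ± 13.5 RPKM (SD, n = 3), followed by Mertk with 155 ± 4.77, Gas6 with 105 ± 10.6, Stab1 with 96.8 ± 4.00 and Pros1 with 75.5 ± 4.39 RPKM. Gas6 and Stab1 did not differ beyond their spread. Axl (13.6 ± 0.970 RPKM) and Mfge8 (13.1 ± 0.692 RPKM) were also within their spread of each other, and Cd36 (7.11 ± 0.382), Scarb1 (4.39 ± 0.453) and Msr1 (1.78 ± 0.0962) closed the list. In App-veh libraries Axl stood beside Mertk, at 152 ± 10.7 and 150.0 ± 2.37 RPKM, below Cd68 at 1203 ± 117 RPKM, while Stab1 was at 37.5 ± 5.69 RPKM, within its spread of Mfge8 at 33.1 ± 9.45 RPKM. With the longest transcript as the length the order of 3 pairs in WT-veh turned: Stab1 (125 RPKM) passed Gas6 (105 RPKM), Mfge8 (26.4 RPKM) passed Axl (16.1 RPKM) and Scarb1 (12.1 RPKM) passed Cd36 (7.51 RPKM).

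**Figure D1:**
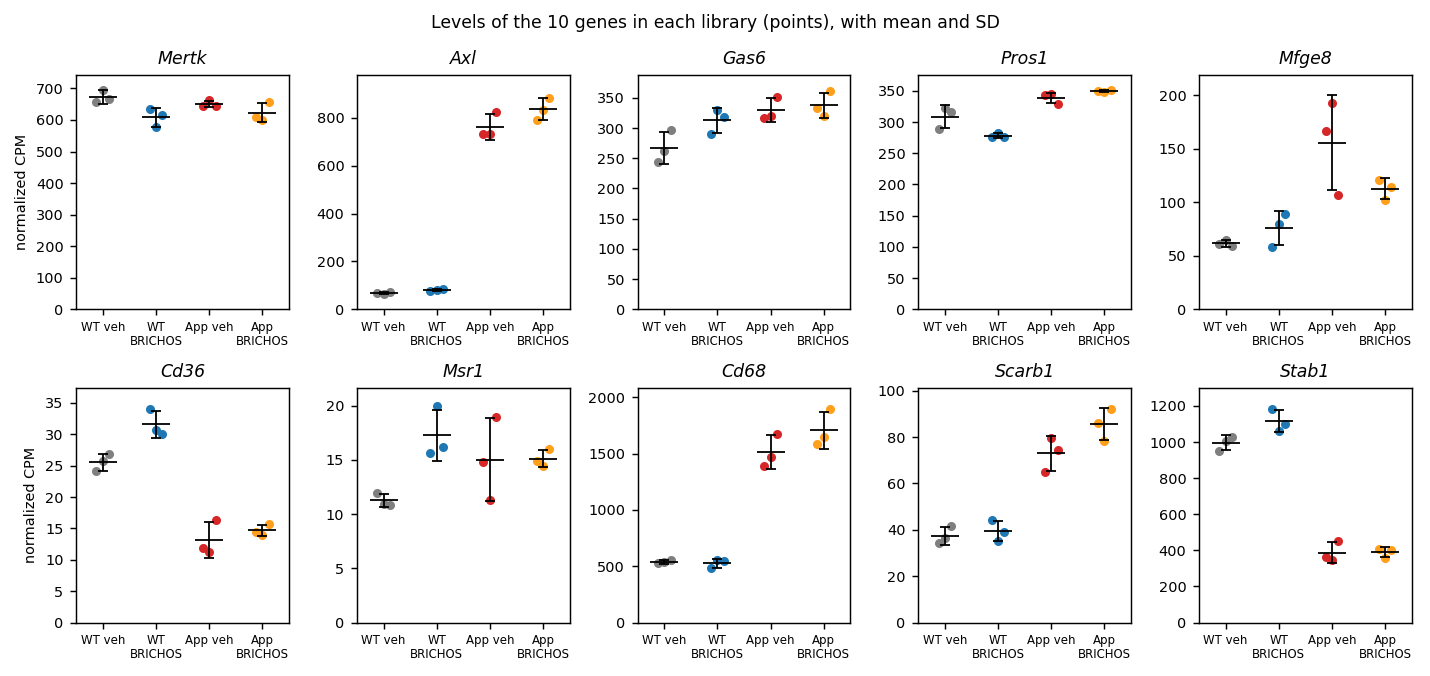
Normalized CPM of the 10 genes in each library, with 1 panel a gene, 3 points a group, the mean as a line and the SD as bars; each panel has its own linear axis from 0. Axl, Cd68 and Scarb1 sit higher and Stab1 and Cd36 lower in all 6 App NL-G-F libraries than in all 6 WT libraries, while the Mertk points of the strains overlap.

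The stretches of 250 bases before the annotated start of 4 of the genes are shown, since these genes carry the contrast of the data: Mertk, for which no comparison passed the test, Axl and Cd68, which rose in App NL-G-F mice, and Stab1, which fell in them. They are RefSeq sequences of GRCm38.p6, 5′ to 3′ on the strand of the gene, at chr2:128698665-128698914 (plus strand) for Mertk, chr7:25788734-25788983 (minus strand) for Axl, chr11:69666171-69666420 (minus strand) for Cd68 and chr14:31168642-31168891 (minus strand) for Stab1. Capitals mark matches to the motifs searched.
Mertk: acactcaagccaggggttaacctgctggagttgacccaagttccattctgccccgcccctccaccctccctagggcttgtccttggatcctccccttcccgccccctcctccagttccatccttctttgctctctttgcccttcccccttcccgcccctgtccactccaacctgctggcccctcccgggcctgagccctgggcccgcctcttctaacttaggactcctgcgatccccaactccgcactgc
Axl: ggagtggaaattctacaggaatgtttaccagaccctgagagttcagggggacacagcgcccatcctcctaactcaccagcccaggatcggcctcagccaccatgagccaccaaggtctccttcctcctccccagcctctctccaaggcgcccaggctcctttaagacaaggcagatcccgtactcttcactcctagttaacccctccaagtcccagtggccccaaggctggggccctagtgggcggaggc
Cd68: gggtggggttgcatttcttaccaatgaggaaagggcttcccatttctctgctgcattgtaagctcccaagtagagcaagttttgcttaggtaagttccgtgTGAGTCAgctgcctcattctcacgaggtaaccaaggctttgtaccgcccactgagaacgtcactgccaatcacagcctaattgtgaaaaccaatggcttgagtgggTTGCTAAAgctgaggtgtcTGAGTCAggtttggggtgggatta
Stab1: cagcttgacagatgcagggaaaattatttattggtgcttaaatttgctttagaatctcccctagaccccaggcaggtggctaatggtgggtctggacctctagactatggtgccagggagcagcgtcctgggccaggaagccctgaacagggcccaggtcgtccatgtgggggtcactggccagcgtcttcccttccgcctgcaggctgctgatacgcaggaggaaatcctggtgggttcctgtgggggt

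Windows of 300 bases, 250 before and 50 after the start, were found for 8 of the 10 genes, the others being Msr1 and Scarb1. They were searched on both strands for 5 sets of letters. The CLEAR core TCACGTGA of lysosomal genes was in 0.974% of 32851 windows of this length, the E-box CACGTG, which lies inside that core, in 7.15%, the AP-1 site TGANTCA in 7.81%, the PU.1 site GAGGAAGT in 3.2% and the C/EBP site TTGCNNAA in 10.8%. Cd68 alone among the 8 held any of them, with AP-1 letters at 149 and 24 bases and C/EBP letters at 43 bases before the start. The Cd36 window (chr5:17835847-17836146) lies inside the annotated gene, whose 5′ end is at 17888801 on the minus strand. For Cd36 the search therefore covers a start within the gene and not that 5′ end. A match is a description of letters, and the absence of one says only that these letters are not in the window.

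The effect of the genotype under veh was examined first. Of the 10 genes, 8 passed the test between App-veh and WT-veh mice at an adjusted p-value under 0.05 (edgeR's quasi-likelihood test, Benjamini-Hochberg over 15425 genes), against 37% of all genes tested. Axl, Gas6, Pros1, Mfge8, Cd68 and Scarb1 rose, where 20.1% of all genes were called higher, and Cd36 and Stab1 fell, where 16.9% were called lower. The median log2 fold change was 0.36 over the 10 genes and -0.02 over all genes. The libraries of the groups did not overlap for the same 8 genes, against 50.8% of all genes, so for a count of this kind the background is high.

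Of the TAM receptors, Axl rose and Mertk did not pass the test. Mertk (chr2:128698956-128802894, GRCm38, plus strand), the main phagocytic TAM receptor of macrophages, was at 656, 696 and 667 CPM in libraries 1 to 3 of WT-veh and at 645, 662 and 644 CPM in those of App-veh. The ranges overlapped, and the log2 fold change of -0.05 (SE 0.0542, 95% interval -0.17 to 0.07) did not pass the test (adjusted p = 0.506). Axl (chr7:25757273-25788705, minus strand), the TAM receptor that prefers GAS6 and is typical of activated macrophages, was at 66.1, 65.3 and 74.1 CPM in WT-veh and at 731, 731 and 825 CPM in App-veh libraries. Every App NL-G-F library was far above every WT library, and Axl rose 11.1-fold (log2 fold change 3.48, SE 0.0839, adjusted p = 6.51e-10). By p-value it ranked 2 among the 15425 genes. Within a library, Axl amounted to 0.0878 ± 0.00751 of the level of Mertk per exon length in WT-veh and to 1.01 ± 0.0814 of it in App-veh mice (SD, n = 3). Tyro3, the remaining TAM receptor, is named here after its values were seen. It was at 15.3 to 35.7 CPM in WT-veh and at 11.2 to 17.8 CPM in App-veh libraries, which overlapped (log2 fold change -0.73, adjusted p = 0.304).

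Gas6 and Pros1, the ligands of these receptors, both rose, with smaller fold changes than Axl. Gas6 (chr8:13465374-13494490, minus strand), the ligand of all TAM receptors, was at 243, 262 and 296 CPM in WT-veh and at 317, 319.7 and 352 CPM in App-veh libraries. The groups did not overlap, and Gas6 rose by 0.30 on the log2 scale (SE 0.0813, adjusted p = 0.0123), a call that was lost without WT-veh library 1 (adjusted p = 0.0542). Its exons share 34 bases with Tmem255b on the opposite strand. Pros1 (chr16:62854307-62929346, plus strand), which encodes the anticoagulant protein S and binds MERTK and TYRO3, was at 288, 322 and 315 CPM in WT-veh and at 343, 345 and 329 CPM in App-veh libraries. The groups lay close without overlap, and the increase of 0.14 on the log2 scale (SE 0.0481, adjusted p = 0.0451) was lost when App-veh library 1 or 2 (adjusted p = 0.119 and 0.131) or WT-veh library 1 or 3 (adjusted p = 0.181 and 0.0673) was left out.

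Mfge8 (chr7:79133768-79149060, minus strand), which links phosphatidylserine to integrins and is also made by astrocytes, was at 60.6, 65.1 and 58.7 CPM in WT-veh and at 167, 193 and 106 CPM in App-veh libraries. Library 3 of App-veh was the lowest of its group but above all WT libraries, and Mfge8 rose 2.53-fold (log2 fold change 1.34, SE 0.197, adjusted p = 0.000275). The summed astrocyte markers were at 4472, 4002 and 1395 CPM in the same App-veh libraries and at 423 to 597 CPM in the WT-veh libraries, with 7 of 7 markers called higher. Without App-veh libraries 1 and 2, those with the most astrocyte RNA, 1 library is left in this group, and its astrocyte sum remains above those of WT-veh. With it alone the log2 fold change of Mfge8 was 0.80. This setting was chosen after seeing the data, and the library was assumed to vary like the other groups. The part of astrocyte RNA in the Mfge8 values was not tested.

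**Figure D2:**
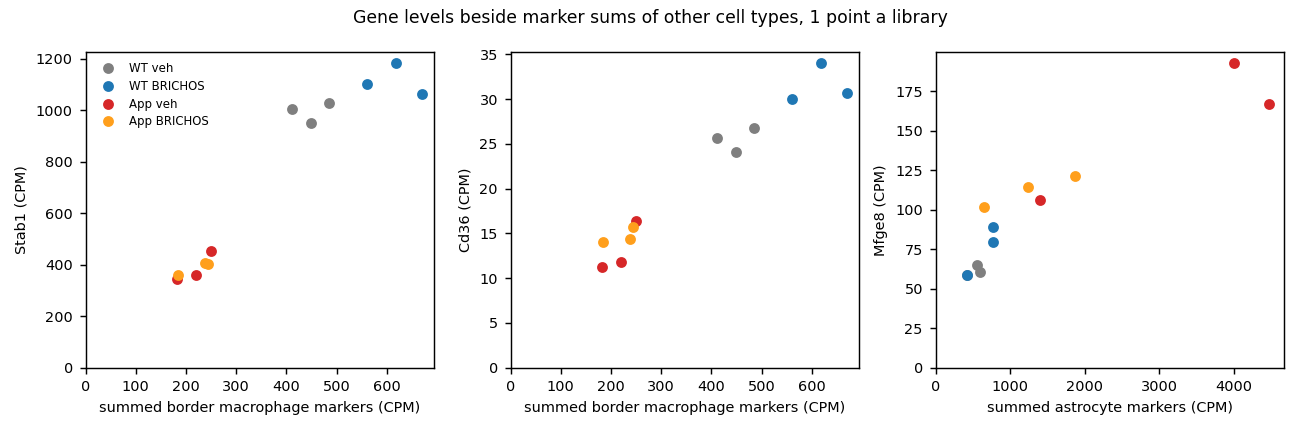
Each point is a library; the panels plot the CPM of Stab1 and of Cd36 against the summed CPM of 7 border macrophage markers, and the CPM of Mfge8 against the summed CPM of 7 astrocyte markers, on linear axes from 0. App NL-G-F libraries sit at the low end of Stab1, Cd36 and the border macrophage sum, and the libraries of App-veh with astrocyte sums of 4002 and 4472 CPM hold the highest Mfge8 values.

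The scavenger receptors split by direction. Scarb1 (chr5:125277087-125341094, minus strand), the high-density lipoprotein receptor SR-B1, was at 34.1, 36.3 and 41.6 CPM in WT-veh and at 64.9, 79.6 and 74.4 CPM in App-veh libraries. All App NL-G-F values were above all WT values, and Scarb1 rose 1.95-fold (log2 fold change 0.97, SE 0.108, adjusted p = 3.28e-05). Msr1 (chr8:39581685-39642673, minus strand), the class A receptor for modified lipoproteins, was at 12.0, 11 and 10.9 CPM in WT-veh and at 14.8, 11.3 and 19.0 CPM in App-veh libraries. These ranges met at library 2 of App-veh, and the log2 fold change of 0.41 (SE 0.166) missed the threshold (adjusted p = 0.0715). Without that library the value was 0.58 and passed (adjusted p = 0.0102).

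Stab1 and Cd36 were the members that fell. Stab1 (chr14:31139013-31168641, minus strand), a large endocytic receptor of tissue macrophages that also binds phosphatidylserine, was at 951, 1007 and 1030.5 CPM in WT-veh and at 361, 344 and 453 CPM in App-veh libraries. The groups were far apart, with a 2.58-fold lower level in App NL-G-F mice (log2 fold change -1.37, SE 0.0980, adjusted p = 9.31e-07). Its exons share 112 bases with Nt5dc2 on the opposite strand. Cd36 (chr5:17781690-17888801, minus strand), a fatty acid transporter and class B scavenger receptor, was at 24.1, 25.7 and 26.8 CPM in WT-veh and at 11.8, 11.2 and 16.4 CPM in App-veh libraries. It was 1.95-fold lower in App NL-G-F mice (log2 fold change -0.96, SE 0.127, adjusted p = 0.000124), without overlap. The markers of border macrophages were lower in the same libraries, with sums of 182 to 249 CPM against 411 to 484 CPM in WT and 6 of 7 called lower at a median log2 fold change of -1.04. Stab1 per summed border macrophage markers was 2.23 ± 0.188 in WT-veh and 1.78 ± 0.130 in App-veh mice, and Cd36 per 100 CPM of them was 5.72 ± 0.470 and 6.03 ± 0.610 (SD, n = 3). Other markers were lower in the same comparison too: 5 of 6 endothelial markers were called lower (median log2 fold change -0.78), 2 of 4 monocyte markers (-0.94) and 2 of 5 mural cell markers (-0.53), and Cd36 is also expressed by endothelial cells. Of the 8 microglia markers, 6 were called lower and 2 higher (median log2 fold change -0.40). The part of these cell types in both values was not tested.

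Cd68 (chr11:69664213-69666153, minus strand), a heavily glycosylated protein of late endosomes and lysosomes, was at 525, 537 and 558 CPM in WT-veh and at 1392, 1468 and 1677 CPM in App-veh libraries. All App NL-G-F libraries were above all WT libraries, and Cd68 rose 2.80-fold (log2 fold change 1.49, SE 0.0910, adjusted p = 2.52e-07). Per exon length its ratio to Mertk was 2.77 ± 0.115 in WT-veh and 8.02 ± 0.835 in App-veh mice.

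**Figure D3:**
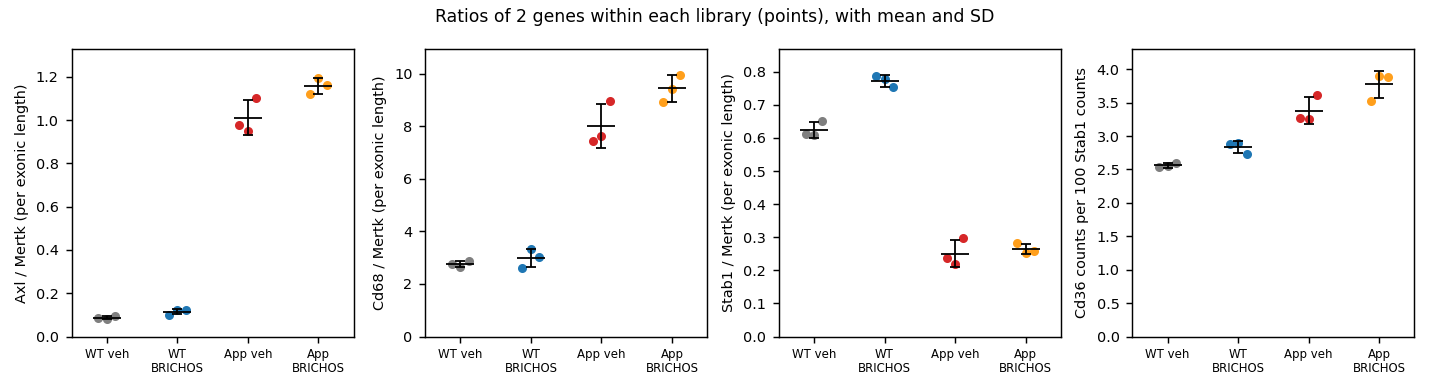
Ratios of a pair of genes within each library (points, 3 a group), with mean and SD, on linear axes from 0; the first 3 panels are per exon length, and the last gives counts of Cd36 per 100 counts of Stab1. Axl per Mertk lies between 0.0809 and 0.121 in WT libraries and between 0.951 and 1.19 in App NL-G-F libraries, and Cd36 per 100 Stab1 counts is 2.56 ± 0.0350 in WT-veh and 3.38 ± 0.199 in App-veh libraries.

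The genotype was then compared under rh Bri2 BRICHOS R221E, between group means of 6 other libraries. All 12 libraries shared the filter, the scaling and the estimate of the spread, so the tests of the comparisons are not independent. Here 7 of the 10 genes passed the test, against 42.5% of all genes. Axl, Pros1, Mfge8, Cd68 and Scarb1 rose (20.8% of all genes were called higher), and Cd36 and Stab1 fell (21.8% were called lower). The same 7 genes did not overlap between the groups, against 51.8% of all genes. The median log2 fold change was 0.22 over the 10 genes and -0.04 over all genes.

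Axl was at 74.5, 80.9 and 86.6 CPM in WT-BRICHOS and at 793, 833 and 885 CPM in App-BRICHOS libraries, a 10.4-fold increase (log2 fold change 3.37, adjusted p = 5.26e-10) that ranked 3 among all genes by p-value. Mertk was at 634, 576 and 616 CPM and at 610.0, 601 and 657 CPM in the same groups, which overlapped (log2 fold change 0.03, adjusted p = 0.667). The ratio of Axl to Mertk per exon length was 0.114 ± 0.0114 in WT-BRICHOS and 1.16 ± 0.0371 in App-BRICHOS mice.

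Among the ligands, Gas6 was at 289.7, 329.8 and 319 CPM in WT-BRICHOS and at 333, 319.5 and 361 CPM in App-BRICHOS libraries. The ranges overlapped and the log2 fold change of 0.11 did not pass the test (adjusted p = 0.302). Pros1 was at 276, 283 and 276 CPM in WT-BRICHOS and at 350.4, 349 and 351 CPM in App-BRICHOS libraries. These are narrow groups well apart, and Pros1 rose by 0.33 on the log2 scale (SE 0.0481, adjusted p = 0.000225). Mfge8 was at 58.6, 79.2 and 89.3 CPM and at 121, 102 and 114 CPM. It rose by 0.57 on the log2 scale (SE 0.194, adjusted p = 0.0335), but not when WT-BRICHOS library 1 or 2 (adjusted p = 0.113 and 0.0628) or App-BRICHOS library 1 or 3 (adjusted p = 0.0851 and 0.0732) was left out. The summed astrocyte markers were at 423 to 768 CPM in WT-BRICHOS and at 649 to 1873 CPM in App-BRICHOS libraries, with 1 of 7 markers called higher.

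Scarb1 was at 44.1, 35.3 and 39.0 CPM in WT-BRICHOS and at 86.2, 78.4 and 92.2 CPM in App-BRICHOS libraries, a 2.17-fold increase (adjusted p = 9.2e-06). Cd68 was at 481, 555 and 543 CPM and at 1581, 1644 and 1894 CPM, a 3.24-fold increase (adjusted p = 7.95e-08). Neither gene overlapped between the strains. Stab1 was at 1184, 1063 and 1101 CPM and at 407, 359 and 404 CPM, 2.86-fold lower in App NL-G-F mice (adjusted p = 3.86e-07). Cd36 was at 34.1, 30.7 and 30.1 CPM and at 14.4, 14.0 and 15.7 CPM, 2.15-fold lower (adjusted p = 3.45e-05). The border macrophage markers, with sums of 561 to 670 CPM in WT-BRICHOS and 184 to 244 CPM in App-BRICHOS libraries, were all 7 called lower, at a median log2 fold change of -1.51. Stab1 per summed border macrophage markers was 1.82 ± 0.204 in WT-BRICHOS and 1.78 ± 0.156 in App-BRICHOS mice, and Cd36 per 100 CPM of them was 5.15 ± 0.497 and 6.71 ± 0.815. Also called lower were 5 of 6 endothelial, 3 of 4 monocyte, 5 of 5 mural cell and 4 of 4 choroid plexus markers, at median log2 fold changes of -1.42, -2.56, -1.54 and -2.44. Of the 8 microglia markers, 5 were called lower and 2 higher (median log2 fold change -0.23). The part of these cell types in the values of Stab1 and Cd36 was not tested. Msr1 was at 15.6, 19.97 and 16.2 CPM and at 14.9, 14.4 and 16 CPM, with a log2 fold change of -0.19 that did not pass the test (adjusted p = 0.361).

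**Figure D4:**
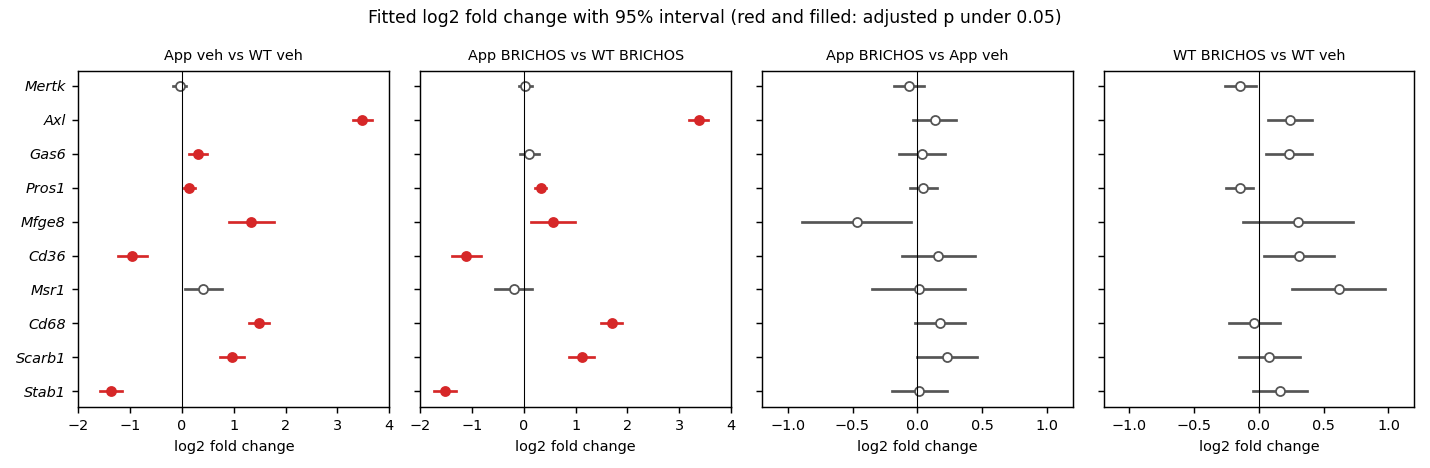
Fitted log2 fold change of the 10 genes (points) with its 95% interval (lines) in 4 comparisons; the axes of the treatment panels cover a narrower range than those of the genotype panels, and filled red points passed the test. Axl stands out at 3.48 and 3.37 in the genotype panels, and no gene passed in the treatment panels.

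To see whether rh Bri2 BRICHOS R221E altered these genes in App NL-G-F mice, the treated and veh-treated mice of this strain were compared. None of the 10 genes passed the edgeR test (adjusted p between 0.41 and 0.991), against 0.00648% of all genes, and DESeq2, which called 124 of all genes, called none of the 10 either. Only Mfge8 had an unadjusted p under 0.05, against 10.8% of all genes. It was at 121, 102 and 114 CPM in App-BRICHOS and at 167, 193 and 106 CPM in App-veh libraries, with a log2 fold change of -0.47 (95% interval -0.89 to -0.04, unadjusted p = 0.0330, adjusted p = 0.41). The groups overlapped through veh library 3. All 7 astrocyte markers had negative values with an unadjusted p under 0.05 in the same comparison (median log2 fold change -1.38), and their part in the Mfge8 value was not tested.

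For the other genes the intervals bound what the 6 libraries could show. Axl was at 793 to 885 CPM after treatment and at 731 to 825 CPM after veh, with a log2 fold change of 0.13 (95% interval -0.03 to 0.30). The value of Cd68 was 0.17 (-0.02 to 0.37) and that of Scarb1 was 0.23 (-0.000203 to 0.46). Stab1 had a value of 0.01 (-0.20 to 0.23), Cd36 of 0.16 (-0.12 to 0.45) and Mertk of -0.06 (-0.18 to 0.06). Pros1 was the only member whose libraries did not overlap between these groups, against 13.4% of all genes, although its log2 fold change was 0.05 (adjusted p = 0.795). Gas6 and Msr1 had values of 0.03 and 0.01. In the same comparison 5 of 6 endothelial markers had lower values at an unadjusted p under 0.05 (median log2 fold change -0.64). So did 2 of 5 mural cell markers (-0.45), and 0 of 7 border macrophage markers (0.04) had such a p. None passed after adjustment, and the part of these cell types in the values above was not tested.

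In WT mice, none of the 10 genes passed the test between treated and veh-treated mice (adjusted p between 0.243 and 0.919), as in 0% of all genes by edgeR, and DESeq2, which called 84 of all genes, called none of the 10. An unadjusted p under 0.05 was given for 6 of them, against 11.4% of all genes, with higher values for Axl, Gas6, Cd36 and Msr1 and lower values for Mertk and Pros1. The libraries of the groups did not overlap for Mertk, Axl, Pros1, Cd36, Msr1 and Stab1, a count of 6 against 17.6% of all genes. The median log2 fold change over the 10 genes was 0.20 and that over all genes was -0.00.

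Msr1 had the largest value of these, at 15.6, 19.97 and 16.2 CPM in WT-BRICHOS against 12.0, 11 and 10.9 CPM in WT-veh libraries, with a log2 fold change of 0.62 (95% interval 0.26 to 0.98, unadjusted p = 0.00298, adjusted p = 0.243). Cd36 followed at 30.1 to 34.1 against 24.1 to 26.8 CPM (log2 fold change 0.31, adjusted p = 0.389). Axl was at 74.5 to 86.6 against 65.3 to 74.1 CPM (0.24, adjusted p = 0.299) and Gas6 at 289.7 to 329.8 against 243 to 296 CPM (0.23, adjusted p = 0.325). The receptor Mertk was at 576 to 634 against 656 to 696 CPM (-0.14, adjusted p = 0.361), and the ligand Pros1 at 276 to 283 against 288 to 322 CPM (-0.15, adjusted p = 0.287). Stab1, at 1063 to 1184 against 951 to 1030.5 CPM, had a log2 fold change of 0.16 (adjusted p = 0.554). Of the border macrophage markers, 6 of 7 had higher values at an unadjusted p under 0.05 in the same libraries, with sums of 561 to 670 against 411 to 484 CPM and a median log2 fold change of 0.49, and none passed after adjustment. The choroid plexus markers ranged from 3182 to 6646 CPM in WT-BRICHOS and from 839 to 3850 CPM in WT-veh libraries. Monocyte markers had overlapping sums of 29.6 to 71.1 and 14.8 to 44.9 CPM and a median log2 fold change of 0.72. Of these, 2 of 4 had higher values at an unadjusted p under 0.05, and none passed after adjustment. The part of these cell types in the values was not tested.

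Whether the treatment acted differently in the strains was tested as the difference of its effects. None of the 10 genes passed (adjusted p between 0.238 and 0.757), against 0.00648% of all genes by edgeR, and DESeq2, with 249 calls among all genes, called none of them. An unadjusted p under 0.05 was found for 3, against 14.8% of all genes. The effect in App NL-G-F minus the effect in WT was 0.19 on the log2 scale for Pros1 (SE 0.0680, adjusted p = 0.238), -0.77 for Mfge8 (SE 0.274, adjusted p = 0.243) and -0.61 for Msr1 (SE 0.232, adjusted p = 0.264). These differences use the same 12 libraries as the comparisons above.

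Other genes of the pathway were counted by lists. Of 18 other recognition and bridging genes, 16 were tested, of which 7 rose and 4 fell between App-veh and WT-veh mice, and 7 rose and 3 fell under BRICHOS. Over all genes, 20.1% were called higher and 16.9% lower under veh, and 20.8% and 21.8% under BRICHOS. The median log2 fold change of the list was 0.14 under veh and 0.04 under BRICHOS, against -0.02 and -0.04 over all genes. Anxa5, which encodes the phosphatidylserine-binding annexin A5, went from 87.1, 88.2 and 90.6 CPM in WT-veh to 273, 292 and 279 CPM in App-veh libraries, far outside the WT range (log2 fold change 1.66, adjusted p = 2.21e-09). Calr, which encodes calreticulin, a chaperone that serves as an eat-me signal on dying cells, rose by 0.67 on the log2 scale (adjusted p = 6.88e-06). Itgb3, an integrin subunit through which MFG-E8 is bound, rose by 0.41 (adjusted p = 0.000163) under veh and by 0.74 (adjusted p = 1.49e-06) under BRICHOS. The myeloid receptor gene Cd300lb rose by 1.86 under veh (adjusted p = 0.000112) and by 1.14 under BRICHOS (adjusted p = 0.00213). Sirpa, which encodes the inhibitory receptor of CD47, rose by 0.48 (adjusted p = 0.000339) under veh and by 0.66 (adjusted p = 2.63e-05) under BRICHOS.

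Of 13 tested genes among 14 other scavenger receptors, 4 rose and 3 fell under veh, and 4 rose and 6 fell under BRICHOS, where 37% and 42.5% of all genes were called in either direction. The median log2 fold change of the list was 0.13 under veh and -0.69 under BRICHOS. Cxcl16, which encodes a chemokine that in its membrane form binds oxidised lipoprotein, went from 114.7 to 116.7 CPM in WT-veh to 268 to 359.6 CPM in App-veh libraries (log2 fold change 1.40, adjusted p = 3.2e-05). Colec12, a scavenger receptor with a collectin domain, rose by 2.17 on the log2 scale (adjusted p = 4.81e-05). Cd163, the haemoglobin scavenger receptor, and Mrc1, the mannose receptor, fell, by log2 values of -1.06 (adjusted p = 3.81e-05) and -1.15 (adjusted p = 8.01e-05), and both genes are also on the border macrophage list. Lrp8, an apolipoprotein E and reelin receptor, was lower in App-BRICHOS than in WT-BRICHOS mice, with a log2 fold change of -1.19 (adjusted p = 5.16e-05). Under veh its value was 0.13 and did not pass the test (adjusted p = 0.492). The treatment values of Lrp8 were -0.92 in App NL-G-F (adjusted p = 0.144) and 0.40 in WT mice (adjusted p = 0.311). Neither these nor their difference of -1.32 (adjusted p = 0.134) passed edgeR's test.

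The engulfment machinery inside the cell, with 15 genes tested, gave 1 higher and 5 lower calls under veh and 3 and 3 under BRICHOS. These 6 of 15 genes in each comparison are near the share over all genes, 37% under veh and 42.5% under BRICHOS, and the median log2 fold changes were -0.18 and -0.05. Elmo1, which with DOCK proteins activates RAC1 during engulfment, was at 426, 447 and 446 CPM in WT-veh and at 218, 231 and 237 CPM in App-veh libraries. Its level was lower in every App NL-G-F library (log2 fold change -0.95, adjusted p = 5.86e-08), and under BRICHOS it was lower by a log2 fold change of -0.84 (adjusted p = 1.35e-07). Its relative Elmo2 rose by 0.40 on the log2 scale under veh (adjusted p = 0.000127) and by 0.30 under BRICHOS (adjusted p = 0.000957). The cholesterol exporter Abca1 had a log2 fold change of -0.32 (adjusted p = 0.00295) and the exchange factor Vav1 one of -0.26 (adjusted p = 0.00263), both lower under veh. Under BRICHOS Abca1 was again lower (-0.39, adjusted p = 0.000591), while Vav1 did not pass the test (-0.007, adjusted p = 0.924). The adaptor Gulp1 was lower under BRICHOS, with a value of -1.67 (adjusted p = 0.00134), and did not pass under veh (-0.40, adjusted p = 0.339).

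Of 12 regulators of these receptors and the proteases that shed them, 3 rose and 2 fell under veh, and 5 rose and 2 fell under BRICHOS, beside 37% and 42.5% of all genes called. The count under veh is near that share, and the median log2 fold change was -0.01 in both comparisons. The nuclear receptor gene Ppard rose by 0.30 on the log2 scale (adjusted p = 0.00152) under veh and by 0.42 (adjusted p = 0.000112) under BRICHOS. Rxra, the partner of lipid-sensing nuclear receptors, rose by 0.24 (adjusted p = 0.0366) under veh and by 0.43 (adjusted p = 0.00143) under BRICHOS. Adam10, a sheddase of many receptors including AXL, fell, by log2 values of -0.33 (adjusted p = 9.55e-05) under veh and -0.23 (adjusted p = 0.00114) under BRICHOS. Rxrb was lower under veh, with a value of -0.37 (adjusted p = 0.000392), and under BRICHOS, with a value of -0.16 (adjusted p = 0.0386). In the treatment comparisons of either strain edgeR called no gene of these 4 lists, and at an unadjusted p under 0.05 there were 3, 3, 2 and 0 genes in App NL-G-F and 5, 3, 4 and 3 genes in WT mice, in the order of the lists, beside 10.8% and 11.4% of all genes.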

How the data were processed

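Cortical CD11b-positive cells of 12 mice, 3 in each of 4 groups, were sequenced as stranded mRNA libraries. The authors deposited raw counts per gene, made from reads aligned to GRCm38. The submitters' processing notes name FastQC 0.11.8, STAR 2.6.1d, featureCounts 1.5.1 and DESeq2. The methods of the paper name another version of STAR, and which was used is not known here. The strand setting and the treatment of reads that fit several genes are not given in the sources used here, so the exon overlaps of Gas6 and Stab1 with genes on the opposite strand cannot be judged. Libraries were assigned to groups by their titles. Gene positions and lengths are those of the GENCODE annotation of GRCm38, which gave a symbol for 55227 of 55487 genes, and 26314 genes had no count.

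From the deposited counts, genes were kept with filterByExpr at a minimum count of 10, scaled by TMM factors and fitted by quasi-likelihood with 4 group means, from which contrasts were tested (R 4.3.3, edgeR 4.0.16, limma 3.58.1), with Benjamini-Hochberg adjustment over 15425 genes and a threshold of 0.05. The fit was tested on simulated data. Levels are CPM with TMM factors, RPKM divides them by the merged exon length, and correlations used log2 CPM with a prior count of 2. Tables and figures were made with Python 3.11.15, pandas 2.3.3 and matplotlib 3.10.9. No pair of libraries of a group agreed within sampling noise (chi-square per degree of freedom 5.86 to 34.6), and all were counted as separate replicates. The totals allow a floor of 3 counts a gene, which covers counting error only.

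The 10 genes and all lists were chosen with earlier results of these data known. Genes outside the 10 were named where they were among the 4 with the lowest p-values of their list and comparison and passed the threshold (1 such gene is not reported here), markers were summed by list, and for each of the 10 genes the 2 genes with the most similar profile were taken. The alternatives were DESeq2 1.42.0 (Wald test, and its size factors in edgeR), no filter or at least 10 counts in every library, only the compared groups, a replicate block, other thresholds, the longest transcript as length, and leaving out each library. Leaving out libraries 1 and 2 of App-veh mice was chosen after seeing the data. The labels give no batch, and same-numbered libraries were not treated as pairs.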

Additional observations from a re-analysis of the deposited data

Results flagged for a closer look

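For Pros1, all libraries of WT-BRICHOS mice (276 to 283 CPM) lay below all WT-veh libraries (288 to 322 CPM), whereas all App-BRICHOS libraries (349 to 351 CPM) lay above all App-veh libraries (329 to 345 CPM). The treatment effect in App NL-G-F minus that in WT mice was 0.19 on the log2 scale (SE 0.0680). By edgeR's test of this difference the adjusted p was 0.238, so it did not pass the threshold, and Pros1 is listed here for the opposite directions of its libraries. The treatment value was only 0.05 in App NL-G-F mice (adjusted p = 0.795) and -0.15 in WT mice (adjusted p = 0.287). In these comparisons 13.4% and 17.6% of all genes had groups without overlap.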

How the results depend on the processing

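The edgeR calls of the 10 genes were 6 higher and 2 lower under veh and 5 higher and 2 lower under BRICHOS, and the replicate block gave the same counts and changed no call. The labels do not say whether same-numbered libraries were handled together. In their deviations these libraries correlated at -0.11 to 0.26, over 0.1 in 9 of 18 pairs. Among the libraries of other groups, 10 of 12 libraries correlated best with one of their own number, and shared handling was not tested. DESeq2's test and its size factors, no filter, the stricter filter and the groups alone left the counts within 1.5 times. Leaving out 1 library gave 4 to 6 higher and 2 lower calls under veh, and 4 to 5 higher and 2 lower under BRICHOS. The call of Pros1 under veh was also lost with no filter (adjusted p = 0.201) and with the compared groups alone (adjusted p = 0.0929). An unadjusted p under 0.05 with an absolute log2 fold change over 1 gave 3 higher and 1 lower under veh and 3 higher and 2 lower under BRICHOS. The unadjusted p alone gave 1 lower gene for the treatment in App NL-G-F, 4 higher and 2 lower in WT, and 1 higher and 2 lower for the difference.

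Reversals touched only values that had not passed the test. In WT treatment, leaving out 1 library gave Cd68 values from -0.0790 to 0.0203 and Scarb1 values from -0.0114 to 0.160. The Mertk genotype value under BRICHOS went from -0.00500 to 0.0654. In App NL-G-F treatment Stab1 went from -0.0618 to 0.146, Msr1 from -0.158 to 0.213 and Gas6 from -0.0144 to 0.0863. The Cd36 difference of effects went from -0.244 to 0.0446. Without App-veh libraries 1 and 2, chosen after seeing the data, the treatment values in this strain were -0.0478 for Gas6, 0.0927 for Mfge8, -0.14 for Cd36, -0.31 for Msr1 and -0.20 for Stab1, and the 1 remaining veh library, the lowest of its group for Mfge8, was assumed to vary like the other groups. With the longest transcript as length the levels of 7 genes in WT-veh and 6 in App-veh moved by more than the spread. The causes were not tested. Msr1, at 10.9 to 19.97 CPM, and Cd36 are the least deeply counted of the 10 genes.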

Other observations

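The genes with profiles most like those of the 10 genes were looked up over the 12 libraries, as a description. The libraries fall into the strains, share their preparation and differ in cell content, so a high Pearson r of log2 CPM may rest on the strains alone; the r of the deviations from the 4 group means is given beside it, and nothing follows from either about shared control. Axl was most like Apoe (r = 0.999, deviations 0.84), which encodes apolipoprotein E, and Igf1 (r = 0.999, deviations 0.68), which encodes insulin-like growth factor 1. Cd68 was most like the lysosomal carboxypeptidase gene Ctsa (r = 0.998, deviations 0.89) and Syngr1 (r = 0.998, deviations 0.85). Mfge8 was most like Prdx6 (r = 0.981, deviations 0.91) and Fabp7 (r = 0.975, deviations 0.95), both well known from astrocytes. Cd36 was most like Cd209a (r = 0.980, deviations 0.63), a lectin gene of dendritic cells and macrophages, and Stab1 (r = 0.979, deviations 0.94). Stab1 itself was most like Serpinf1 (r = 0.992, deviations 0.75) and Clec4a3 (r = 0.990, deviations 0.48).

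For the genes with small changes the closest profiles were weaker. Mertk was most like Ttl (r = 0.924, deviations 0.91), Gas6 like Slamf7 (r = 0.930, deviations 0.84), Pros1 like Cyfip1 (r = 0.968, deviations 0.82) and Msr1 like Raph1 (r = 0.846, deviations 0.76). Scarb1, which rose in App NL-G-F mice, was most like Alg1 (r = 0.990, deviations 0.79).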
